A study of Mus musculus with 11 samples.

Results

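The 10 genes described here set the pace of the step from G1 into S phase: the D cyclins Ccnd1, Ccnd2 and Ccnd3, the E cyclins Ccne1 and Ccne2, their kinases Cdk4, Cdk6 and Cdk2, and the inhibitors Cdkn1a and Cdkn1b. They were found on the array as the gene probes whose RefSeq accession is a transcript of one of these genes, which gave 15 probes of all 10 genes among 20144 genes named on the array. Liver RNA came from db/db mice, which are obese and diabetic because they lack a working leptin receptor. The control group had PBS (5 samples, numbered 1, 3, 4, 5 and 6), and the treated group had 3c7.v44, a monoclonal antibody that targets GCGR, the receptor for glucagon, at 5 mg/kg (6 samples, numbered 1 to 6). Age, sex, strain background, number of doses and time of sampling are not given in the sources used here, and both groups carry db/db. Whole liver was measured, so that fewer cells of a type and less RNA per cell cannot be told apart, and whether the samples came from different mice is not stated in the labels, so that p-values reflect only how much these samples vary.

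A resting hepatocyte that is called into division makes D cyclins first. These bind CDK4 and CDK6, which start to phosphorylate the retinoblastoma protein, and cyclin E with CDK2 completes that step and frees E2F factors to switch on the genes of DNA replication. The inhibitors of the CIP/KIP family, p21 (Cdkn1a) and p27 (Cdkn1b), block CDK2 and also bind cyclin D complexes. In adult liver few cells divide at any time, and Ccnd1 is the D cyclin best known for its induction in regenerating liver.

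Each sample was hybridised in Cy5 to its own 2-colour array against a pooled mouse reference RNA in Cy3, so every level below is log2 of liver over reference, and every difference is the antibody mean minus the PBS mean on that scale. In Cy5, 66.2% to 77.1% of an array's gene spots exceeded background clearly by the scanner's flag, which is what well above background means here. The liver label was borne out by 9 hepatocyte markers, whose mean level lay between 6.01 and 6.24 on all arrays, and none of the 9 passed the test between groups. Antibody sample 5 stood apart, with a median correlation of 0.982 with its group against 0.990 to 0.994 for the other 10 arrays. The arrays lay on 3 slides that each held both groups. Slides 1 and 3 held 2 PBS samples each and slide 2 held 1, so that each slide 2 difference rests on 1 PBS array, and all slides held 2 antibody samples. PBS samples were at positions 1 or 2 and antibody samples at positions 3 or 4, so position and treatment cannot be told apart.

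Of the 10 genes, Ccnd1 and Ccne1 rose with the antibody, none fell, 7 did not pass the test and Ccne2 was not well above background. The count of 2 higher among 9 tested genes stands beside 8.98% of all 15970 genes tested called higher, 5.66% called lower and 14.6% called in either direction (limma, 6 against 5 arrays, two-sided, Benjamini-Hochberg adjusted p under 0.05 over all genes). The median difference was 0.07 over the 9 genes and 0.01 over all genes. The same pair of genes had groups that did not overlap, with higher values in every antibody sample, as did 3.95% of all genes, and 6.64% of all genes had no overlap in either direction.

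**Figure D1:**
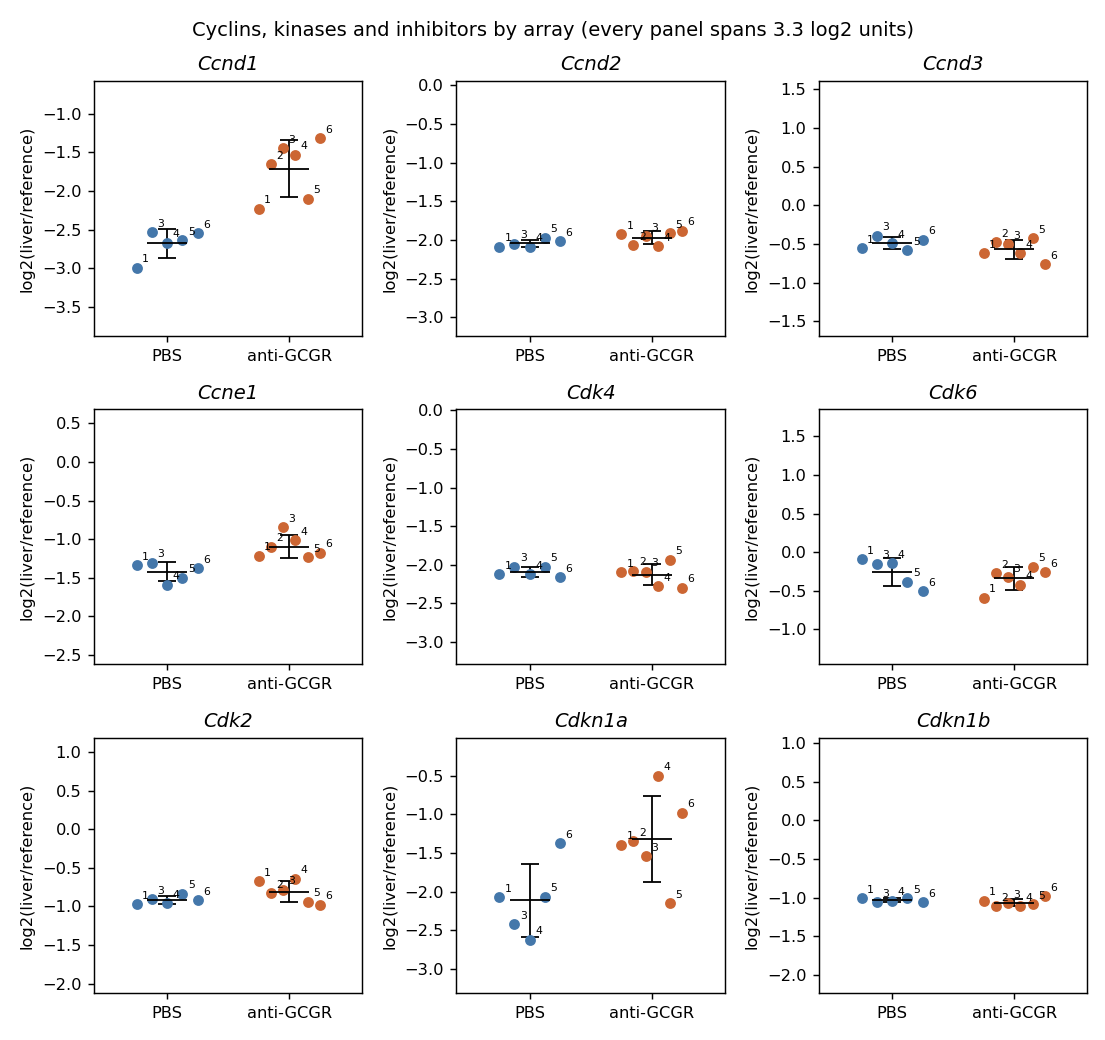
Level of the 9 tested genes on each array, as log2 of liver over reference (vertical axis), for PBS and antibody (anti-GCGR) samples. Points are arrays with their sample number, bars are the mean ± SD, and every panel spans the same number of log2 units; Ccnd1 and Ccne1 show no overlap between groups, and Cdkn1a has the widest spread within both.

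Ccnd1, cyclin D1 (chromosome 7, 144929931 to 144939831 in GRCm38.p6), was at -2.99, -2.53, -2.67, -2.64 and -2.54 in PBS samples 1, 3, 4, 5 and 6. In the antibody group its lowest value was -2.23, its median -1.59 and its highest -1.31. PBS sample 1 was the lowest of all arrays, antibody samples 1 and 5 lay nearest to the PBS group, and antibody samples 2, 3, 4 and 6 lay well clear of it. The PBS mean was -2.68 ± 0.19 (SD, n = 5) and the antibody mean -1.71 ± 0.37 (SD, n = 6). The difference was 0.97 ± 0.16 (SE, limma adjusted p = 0.00556), or 1.95-fold with a 95% interval of 1.54 to 2.47. Among all genes tested it ranked 107 by p. The exact permutation test over all splits of the arrays gave a two-sided, unadjusted p of 0.00433, where 0.00216 is the smallest it can give. Within slides 1, 2 and 3 the difference was 0.95, 0.76 and 1.16, and leaving out any single array kept the adjusted p between 0.000444 and 0.0181.

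Ccnd1 was measured by 1 probe, printed as 1 spot on each array, so no second probe or spot repeats its difference. The scanner signal of Ccnd1 in the liver dye, before any correction, ranged from 754 to 1307 over the PBS arrays and from 1288 to 2967 over the antibody arrays. When each dye was normalized alone, the Cy5 difference was 0.998 ± 0.20 (SE) and the Cy3 difference 0.0048 ± 0.06 (SE, limma adjusted p = 0.988).

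Cell types other than hepatocytes also express Ccnd1, and markers of some of them were higher with the antibody, beside 8.98% of all genes called higher. Of 8 markers of stellate cells and fibroblasts 5 rose and none fell, led by the collagens Col1a1 (1.57 ± 0.29, SE) and Col3a1 (1.09 ± 0.19, SE), and with them the retinoid enzyme Lrat (0.61 ± 0.16, SE). Their mean level lay between -1.68 and -1.37 on PBS arrays and between -1.29 and -0.67 on antibody arrays, with no overlap, and all 8 passed the background filter. Of 8 endothelial markers 3 rose and none fell (mean level 2.45 to 2.66 in PBS, 2.54 to 3.01 with antibody), and of 7 Kupffer cell and macrophage markers 1 rose and none fell (3.245 to 3.77 and 3.303 to 3.81). Both the endothelial and the Kupffer cell ranges overlapped between groups. The part of these cells in the Ccnd1 difference was not tested.

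**Figure D2:**
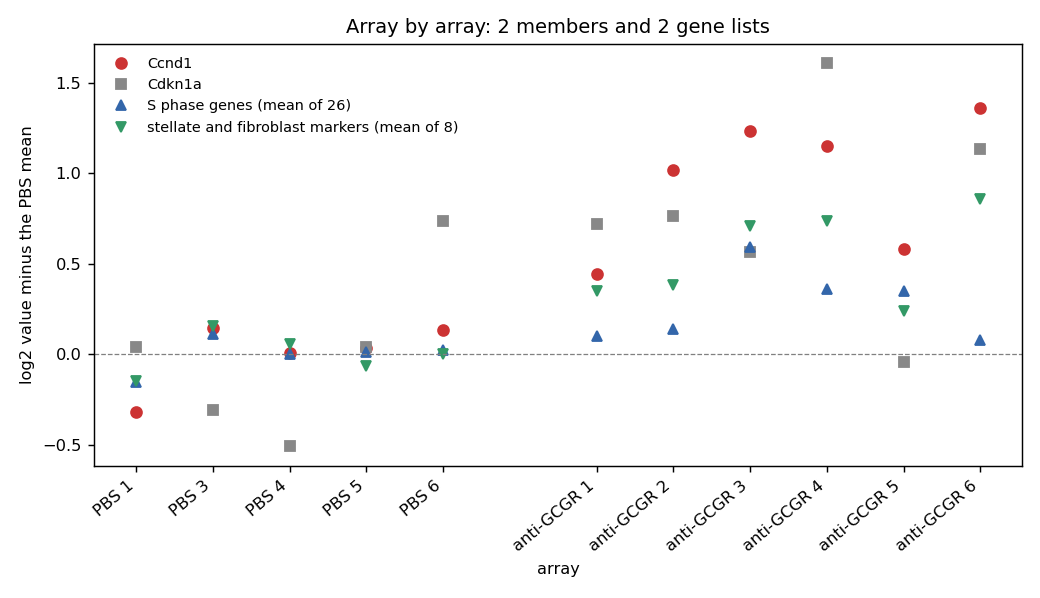
Level of Ccnd1 and Cdkn1a, and mean level of the S phase genes and of the stellate cell and fibroblast markers, on each array, as the log2 value minus the mean of the PBS arrays (vertical axis). Ccnd1 and the stellate markers lie above every PBS value on all 6 antibody arrays, and Cdkn1a is also high on PBS sample 6 and at the PBS mean on antibody sample 5.

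After subtraction of each group's mean, the genes whose pattern over the 11 arrays was most like that of Ccnd1 were Sparc, a matrix protein (Pearson r = 0.92), Adamts2, which trims procollagen (r = 0.91), and Sphk1, a sphingosine kinase (r = 0.90). These are the 3 highest of 15970 genes, the arrays share the reference RNA, and the values are a description only. Sparc rose by 0.30 ± 0.06 (SE, limma adjusted p = 0.0118, 0.39 on its other probe). Adamts2 rose by 0.55 ± 0.15 (SE, adjusted p = 0.0310), with 0.09 on its other probe, and Sphk1 was at 0.25 ± 0.09 (SE, adjusted p = 0.0781), with 0.17 on its other probe.

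For the other D cyclins the groups overlapped. Ccnd2 (chromosome 6, 127125162 to 127152188), the D cyclin of many lymphoid and endocrine cells, lay between -2.09 and -1.97 in PBS and between -2.08 and -1.88 with antibody. Its difference was 0.07 ± 0.05 (SE, limma adjusted p = 0.375), with a 95% interval of 0.974 to 1.14-fold. Ccnd3 (chromosome 17, 47505051 to 47599689), which is widely expressed, lay between -0.58 and -0.39 in PBS and between -0.76 and -0.43 with antibody, with antibody sample 6 the lowest. Its difference was -0.08 ± 0.07 (SE, adjusted p = 0.466, interval 0.859 to 1.05-fold), and 0.02 ± 0.07 (SE) on its other probe. So neither interval reached the size of the Ccnd1 difference, though the difference between the cyclins was not itself tested.

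Ccne1, cyclin E1 (chromosome 7, 38097984 to 38107490), was at -1.34, -1.30, -1.59, -1.50 and -1.37 in PBS samples 1, 3, 4, 5 and 6. With antibody its lowest value was -1.23, its median -1.14 and its highest -0.84. Every antibody sample lay above every PBS sample, by a margin between the nearest arrays that was smaller than the spread within either group. The PBS mean was -1.42 ± 0.12 (SD, n = 5) and the antibody mean -1.10 ± 0.15 (SD, n = 6). The difference was 0.33 ± 0.08 (SE, limma adjusted p = 0.0185), or 1.25-fold with a 95% interval of 1.11 to 1.41. The exact permutation p was 0.00216, unadjusted and the smallest that the splits allow. Within slides 1, 2 and 3 the difference was 0.35, 0.34 and 0.33.

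A second Ccne1 probe, designed on the same transcript, did not show the rise, at 0.01 ± 0.09 (SE, limma adjusted p over all kept probes = 0.942). That probe was dim, with an unlogged Cy5 signal of 40 to 57 on antibody arrays and 42 to 47 on PBS arrays, where the brighter probe read 620 to 1040 and 514.5 to 578. Background correction added an offset of 50 to each signal, which shrinks the differences of so dim a probe toward 0. Its value is thus not a like measure of the rise, and it also enters the mean of both probes. With the mean of both probes the Ccne1 difference was 0.17 (adjusted p = 0.171), and with median centring of the arrays in place of the intensity-dependent loess curve it was 0.22 (adjusted p = 0.0564). In Cy5 alone the difference was 0.44 ± 0.10 (SE), and in the reference dye 0.12 ± 0.04 (SE, adjusted p = 0.157).

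The 250 bases before the Ccne1 start are shown because this is the called gene whose promoter the RefSeq table (GRCm38.p6) holds. They lie at chr7:38107491-38107740 on the minus strand, and the capitals mark GGGCGG or its reverse complement, the GC box bound by Sp1.
Ccne1: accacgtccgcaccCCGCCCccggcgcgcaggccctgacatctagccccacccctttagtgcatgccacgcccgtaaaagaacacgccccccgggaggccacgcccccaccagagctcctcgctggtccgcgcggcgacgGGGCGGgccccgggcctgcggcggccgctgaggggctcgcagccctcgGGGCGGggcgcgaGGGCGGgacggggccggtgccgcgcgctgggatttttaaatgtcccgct
This window held 4 GC boxes and 76% G and C. Of 32851 promoter windows of the same length 32.7% held at least 1 GC box. The E2F motif searched, TTTNNCGC on both strands, had no match in it and was found in 4.28% of all windows.

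Ccne2, cyclin E2 (chromosome 4, 11190433 to 11204779), was not well above background in the liver dye on any of the 11 arrays. Its unlogged Cy5 signal was 28.5 to 34 in PBS and 31 to 36 with antibody, where the median background of the arrays was 26 to 27, and no difference is given. On 8 arrays the probe was well above background in the reference dye.

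The kinases did not pass the test. Cdk4 (chromosome 10, 127063535 to 127067288), a partner of the D cyclins, was measured by 3 probes, which were at -0.04 ± 0.07, -0.04 ± 0.05 and -0.07 ± 0.05 (SE). On its brightest probe Cdk4 lay between -2.16 and -2.02 in PBS and between -2.30 and -1.93 with antibody, and the antibody range enclosed the PBS range (limma adjusted p = 0.748, interval 0.880 to 1.08-fold). Cdk6 (chromosome 5, 3341004 to 3531008), the other D cyclin partner, lay between -0.50 and -0.09 in PBS and between -0.59 and -0.19 with antibody. Its difference was -0.09 ± 0.09 (SE, adjusted p = 0.564), and within slides 1, 2 and 3 it was -0.39, 0.16 and 0.04. The Cdk6 signal was low, 51.5 to 95.5 unlogged Cy5 units over all arrays, though well above background on each. The offset of 50 added in background correction shrinks the difference of so dim a probe toward 0. Cdk2 (chromosome 10, 128697938 to 128705051), the partner of cyclin E, lay between -0.97 and -0.84 in PBS and between -0.98 and -0.64 with antibody. Antibody samples 1 and 4, both on slide 1, were its highest, and the within-slide difference was 0.31 there and -0.05 and 0.03 on slides 2 and 3. Over all arrays the Cdk2 difference was 0.11 ± 0.07 (SE, adjusted p = 0.282, interval 0.979 to 1.19-fold).

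The promoter window of Cdk4 is shown because its 3 probes gave the closest repeat measurement of a gene that did not pass. It covers chr10:127063285-127063534 on the plus strand, and the capitals mark CACGTG, the E-box read by MYC and related factors.
Cdk4: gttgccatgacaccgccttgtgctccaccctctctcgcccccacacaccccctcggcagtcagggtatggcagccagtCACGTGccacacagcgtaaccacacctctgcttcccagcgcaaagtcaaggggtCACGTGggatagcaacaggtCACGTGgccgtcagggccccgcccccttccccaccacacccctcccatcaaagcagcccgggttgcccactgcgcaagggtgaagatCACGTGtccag
It held 4 E-boxes, and 6.02% of all windows held at least 1. Among the 9 windows of the 7 member genes in the table, E2F motif matches were found in those of Cdk2 and Cdk6 (1 each). A full cAMP response element, TGACGTCA, was found in none of the 9 and in 1.55% of all windows.

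Cdkn1a, the inhibitor p21 (chromosome 17, 29090979 to 29100722), varied most between arrays. It was at -2.07, -2.42, -2.62, -2.07 and -1.37 in PBS samples 1, 3, 4, 5 and 6. With antibody its lowest value was -2.15, its median -1.37 and its highest -0.50. Antibody samples 2, 4 and 6 lay above every PBS sample, PBS sample 6 was as high as antibody sample 1 (-1.39), and antibody sample 5 lay inside the PBS range. The antibody mean was -1.32 ± 0.55 (SD, n = 6), and the PBS mean -2.11 ± 0.47 (SD, n = 5). The difference was 0.79 ± 0.27 (SE, limma adjusted p = 0.0623), with an unadjusted 95% interval of 1.16 to 2.58-fold and an exact permutation p of 0.0368, also unadjusted.

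The probe was printed as 10 spots on each array, and the SD of the log2 ratio between these spots was 0.02 to 0.10. The spread between samples was thus several times the spread between spots of the same array. Without PBS sample 6, the highest of its group, the difference was 0.98 (limma adjusted p = 0.0332). Without antibody sample 5, the lowest of its group, it was 0.96 (adjusted p = 0.00993). Leaving out either array thus moved Cdkn1a past the threshold, as in 2 of 11 such fits, with adjusted p up to 0.146. Without antibody sample 5 the genes called also rose from 2338 to 3868 over all genes. Within slides 1, 2 and 3 it was 1.40, 0.32 and 0.64. In Cy5 alone it was 0.79 ± 0.27 (SE), and in the reference dye 0.01 ± 0.03 (SE).

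A second Cdkn1a probe, designed on the other RefSeq transcript, was at 0.09 ± 0.07 (SE, limma adjusted p over all kept probes = 0.467). It was dim, with an unlogged Cy5 signal of 39 to 76, and well above background on 8 of 11 arrays. The offset of 50 shrinks its differences toward 0 as well, so it is not a like measure of the brighter probe's difference. The mean of both probes gave a difference of 0.44 (adjusted p = 0.0299). The dim probe enters that mean, so it is not a like measure either. RefSeq lists separate starts for this gene, and the windows before them are shown because the probes gave different values. Which start belongs to which probe's transcript is not stated in the table. Capitals mark matches to the p53 decamer, the unit that p53 binds in pairs, searched by its usual consensus on both strands.
Cdkn1a, chr17:29090729-29090978, plus strand: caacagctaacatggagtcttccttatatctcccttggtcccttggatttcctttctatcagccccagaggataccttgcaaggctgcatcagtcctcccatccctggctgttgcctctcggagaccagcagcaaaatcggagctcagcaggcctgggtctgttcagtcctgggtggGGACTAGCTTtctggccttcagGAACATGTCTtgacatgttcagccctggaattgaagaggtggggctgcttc
Cdkn1a, chr17:29093519-29093768, plus strand: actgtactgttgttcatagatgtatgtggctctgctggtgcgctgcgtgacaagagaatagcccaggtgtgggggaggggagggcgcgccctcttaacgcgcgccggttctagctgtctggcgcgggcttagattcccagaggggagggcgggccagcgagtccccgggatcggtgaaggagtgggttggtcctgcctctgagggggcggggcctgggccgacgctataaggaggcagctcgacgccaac
The upstream window held 2 matches, 73 and 51 bases before the start, and the downstream window none. At least 1 match was found in 7.13% of all windows.

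**Figure D3:**
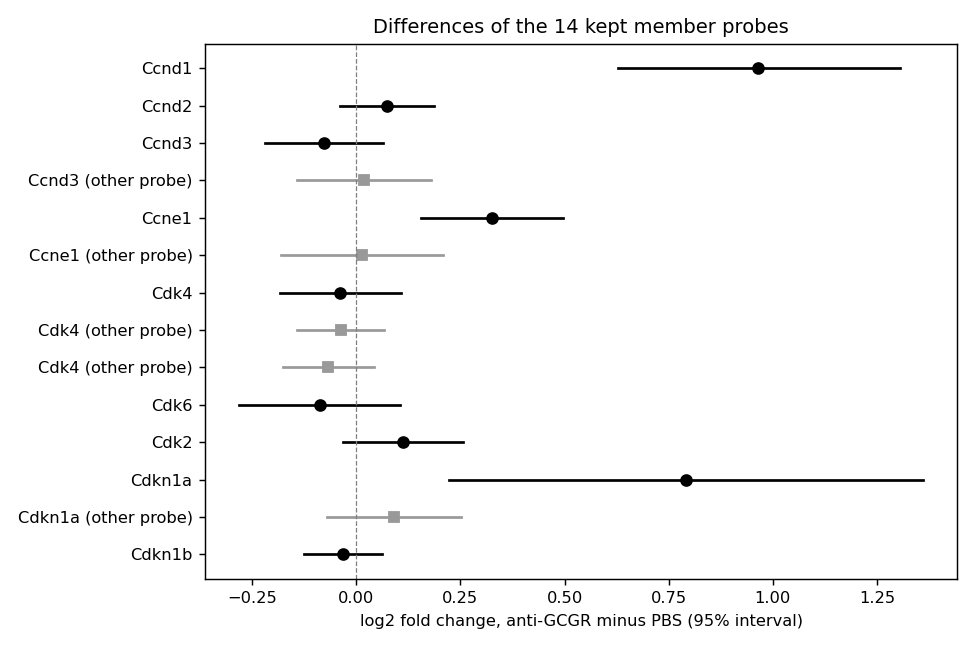
Difference between antibody and PBS for each of the 14 kept probes, as log2 fold change with its 95% interval (horizontal axis). Black points are the brightest probe of a gene and grey squares its other probes; the intervals of Ccnd1, Cdkn1a and Ccne1 lie above 0 on the brightest probe, and those of the other Ccne1 and Cdkn1a probes include 0.

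Cdkn1b, the inhibitor p27 (chromosome 6, 134920401 to 134925525), was the steadiest of the 9 genes within groups. It lay between -1.06 and -1.01 in PBS and between -1.11 and -0.99 with antibody. The difference was -0.03 ± 0.04 (SE, limma adjusted p = 0.662), with a 95% interval of 0.917 to 1.04-fold. A change of the size seen in Ccnd1 or Ccne1 lies outside that interval.

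**Figure D4:**
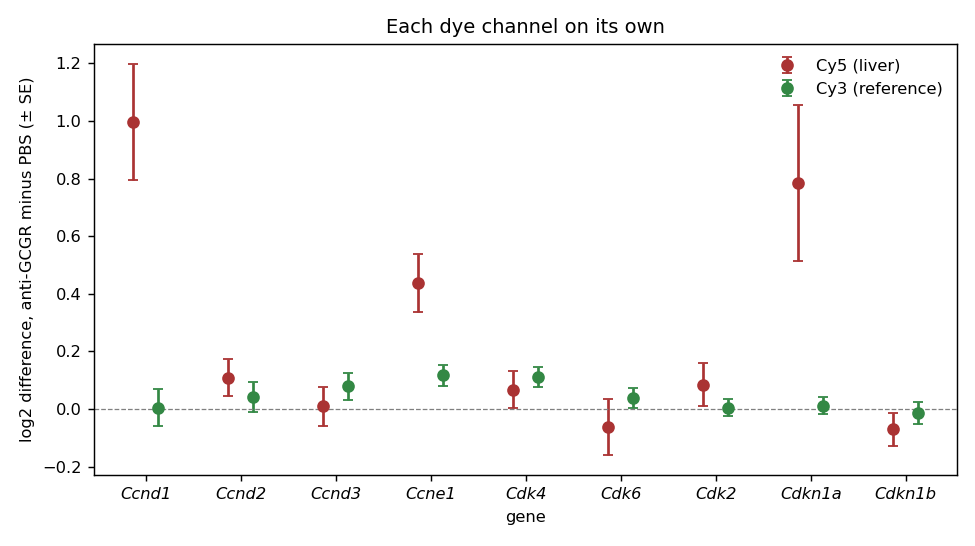
Difference between antibody and PBS in each dye normalized on its own (vertical axis, log2, ± SE), for the liver dye Cy5 and the reference dye Cy3. The differences of Ccnd1 and Cdkn1a were near 0 in the reference dye, and those of Ccne1 and Cdk4 were 0.12 and 0.11 there.

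In its pattern over the arrays, with group means subtracted, Cdkn1a was most like Siglece, a myeloid lectin (r = 0.95), Osgin2, an oxidative stress gene (r = 0.94), and Ikzf1, a lymphoid transcription factor (r = 0.94). Osgin2 rose by 0.37 ± 0.08 (SE, limma adjusted p = 0.0122). Siglece (0.05 ± 0.04, SE) and Ikzf1 (-0.01 ± 0.09, SE) did not pass. Between members, the lowest of 36 such correlations was that of Cdk4 with Cdkn1a (r = -0.79), while that of Ccnd1 with Cdkn1a was 0.44 and with Ccne1 0.43, all over 11 arrays and as descriptions only. Each gene stands here by its brightest probe, and whether the other Cdk4 probes repeat that value was not tested.

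Next along the pathway stand the retinoblastoma proteins and the E2F factors they hold. Of these 13 genes 3 rose, 2 fell and 8 did not pass (median 0.05). This count and those of the lists below stand beside 8.98% of all genes called higher, 5.66% called lower and 14.6% called in either direction. E2f8, a repressor E2F that is itself made in S phase, rose by 0.82 ± 0.13 (SE, limma adjusted p = 0.00556). The p107 gene Rbl1 rose by 0.37 ± 0.09 (SE, 0.27 on its other probe), and the E2F partner Tfdp1 by 0.31 ± 0.05 (SE). The other partner, Tfdp2, was lower (-0.60 ± 0.14, SE, and -0.46 on its other probe, which did not pass), as was E2f5, a repressor E2F (-0.35 ± 0.09, SE). Rb1 itself was at -0.02 ± 0.07 (SE), and the activator E2f1 at 0.27 ± 0.09 (SE, adjusted p = 0.0585). The call of E2f5 was lost in 3 of the 11 fits that each left out 1 array. With median centring 1 of the 13 was called higher and 4 lower, and the median was -0.03.

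The remaining CDK inhibitors went both ways, with 1 of 5 higher, 2 lower and 2 not passing, beside 14.6% of all genes called. Cdkn1c (p57, of the same family as p21 and p27) fell from 2.46 ± 0.12 (SD, n = 5) to 2.12 ± 0.19 (SD, n = 6), a difference of -0.34 ± 0.09 (SE, limma adjusted p = 0.0238). Cdkn2c (p18, an inhibitor of CDK4 and CDK6) was at -0.28 ± 0.07 (SE, adjusted p = 0.0217). Cdkn2b (p15) was called higher, at 0.26 ± 0.07 (SE, adjusted p = 0.0375), but was at -0.13 on its other probe. Leaving out 1 array at a time, the call was lost in 3 of 11 fits for Cdkn1c, 3 for Cdkn2c and 6 for Cdkn2b. With scaling between arrays none of the 5 was called, and with median centring or Cy5 alone the Cdkn2b call was lost and 2 of the 5 were called lower.

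Among 12 regulators of CDKs, beside 8.98% of all genes called higher, 3 rose, none fell and 9 did not pass (median 0.02). These were the CDK subunit Cks1b, which also helps degrade p27 (0.37 ± 0.05, SE, and 0.50 on its other probe), the activating phosphatase Cdc25a (0.29 ± 0.07, SE) and the inhibitory kinase Pkmyt1 (0.21 ± 0.04, SE). With median centring, and with Cy5 alone, 1 was called higher and 1 lower. The A and B cyclins and Cdk1 of later phases had 2 of 4 genes higher and none lower (median 0.31). These were Cdk1 at 0.32 ± 0.08 (SE, and 0.22 on its other probe, which did not pass) and Ccnb2 at 0.29 ± 0.09 (SE). Neither was called with median centring, the scanner software's ratio or scaling between arrays, and leaving out 1 array lost the Ccnb2 call in 10 of 11 fits and the Cdk1 call in 3.

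Genes of S phase, many of them E2F targets, were the longest list and held more calls than any other. Of 26 genes 12 rose, 1 fell and 13 did not pass (median 0.27, beside 0.01 and 8.98% called higher over all genes). The largest rises were those of the helicase subunit Mcm6 (1.01 ± 0.21, SE, limma adjusted p = 0.0118), the methylation reader Uhrf1 (0.90 ± 0.21, SE), the licensing factor Cdt1 (0.65 ± 0.13, SE) and Mcm4 (0.58 ± 0.13, SE). On its other probe Uhrf1 was at -0.10. The thymidine kinase Tk1 was the gene called lower (-0.59 ± 0.19, SE, adjusted p = 0.0494), a call lost in 10 of 11 fits with 1 array left out. In those fits 9 to 13 of the 26 were called higher, and 7 were with median centring or with scaling between arrays. Among 11 markers of dividing cells (Ccnb1 is also an A and B cyclin list member) 3 rose and none fell (mean level -3.45 to -3.31 in PBS, -3.33 to -2.93 with antibody). Mki67 was at 0.41 ± 0.11, Plk1 at 0.24 ± 0.05 and Aurka at 0.19 ± 0.06 (SE).

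**Figure D5:**
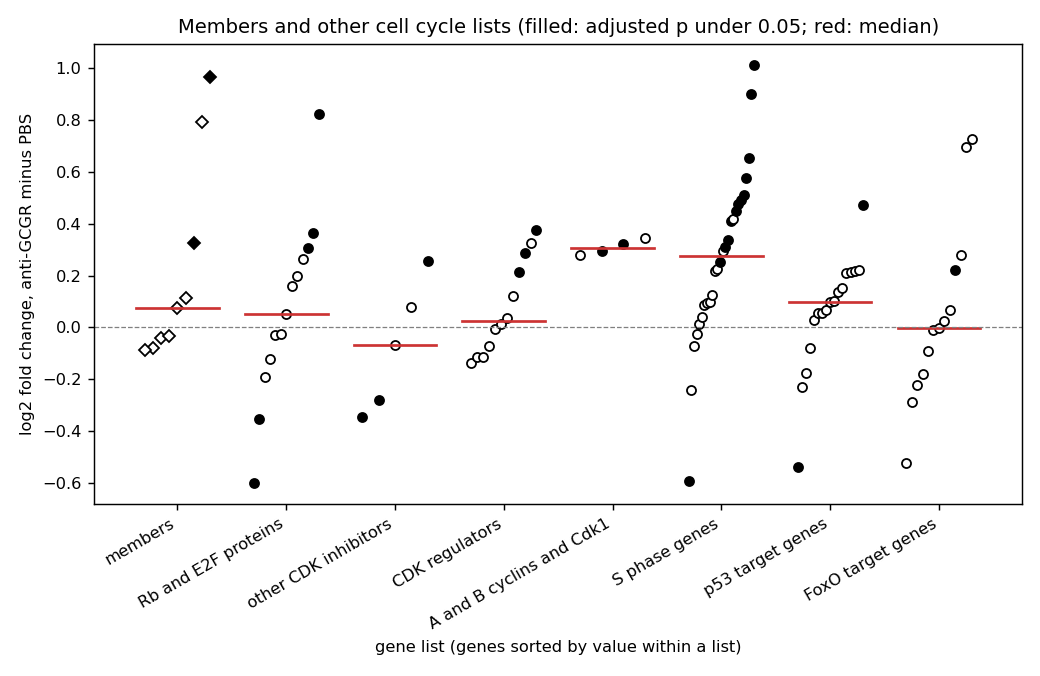
Difference between antibody and PBS (vertical axis, log2 fold change) for the 9 tested members and for each tested gene of 7 lists. Filled symbols passed an adjusted p of 0.05 over all genes and red lines are medians. The S phase genes, the longest list, hold 13 calls of 26 genes, and the p53 and FoxO lists hold 2 of 17 and 1 of 13. Of all genes 14.6% were called in either direction.

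Cdkn1a is the best-known target of p53, and of 17 other p53-related genes 1 rose, 1 fell and 15 did not pass (median 0.10). This count and that of the FoxO targets below stand beside 14.6% of all genes called in either direction. Perp, a junction protein, rose by 0.47 ± 0.09 (SE, limma adjusted p = 0.00709), and Trp53inp1, a stress protein, was lower (-0.54 ± 0.09, SE, adjusted p = 0.00556, and -0.21 on its other probe, which did not pass). Mdm2, which degrades p53, was at -0.08 ± 0.06 (SE), and Ccng1 at 0.03 ± 0.09 (SE), neither past the threshold. Without antibody sample 1 the p53 list had 3 genes called higher, and without antibody sample 5 it had 2. Without PBS sample 4, and with median centring, the scanner software's ratio or Cy5 alone, 2 were called lower. FoxO factors, which insulin holds out of the nucleus, drive Cdkn1b in many cells. Of 13 FoxO targets 1 rose, none fell and 12 did not pass (median -0.00), the riser being the growth arrest gene Gadd45b (0.22 ± 0.06, SE), whose call was lost in 6 of 11 fits with 1 array left out. Without antibody sample 5, the array that stood apart, 4 FoxO targets were called higher and 2 lower. Without PBS sample 6 there were 2 called higher, without PBS sample 5 there was 1 called lower, and with Cy5 alone 2 were called in each direction. With median centring the p53 median was -0.02, and the FoxO median -0.12 with 2 genes called lower and none higher.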

How the data were processed

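Liver RNA of 5 PBS and 6 antibody samples was measured on 2-colour Agilent arrays, liver in Cy5 and a pooled reference in Cy3, with no dye swap. Scanner files were deposited (Feature Extraction 11.5.1.1, given as 11 in the submitters' processing notes). Per the file headers they hold unlogged median intensity of spots and background, a background-subtracted and dye-normalized log10 ratio, and flags of 0 or 1. The authors also deposited log2 ratios of Cy5 over Cy3, with no processing named in the sources used here. They differed from the values used here by a median of 0.00329 (lowest correlation 0.999964, column medians -0.0028 to 0.0081), which fixes their scale and direction and shows no centring per gene.

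Using R 4.3.3 and limma 3.58.1, normexp (offset 50) corrected the background, loess normalized each array (weight 0 for control spots), uneven spots were dropped (none of a member) and spots of a probe averaged. Probes were named through RefSeq accessions (26581 of 39429 probes). Kept probes were well above background on 5 or more arrays in Cy5, and the brightest kept probe stood for its gene. lmFit and eBayes compared antibody with PBS, and the fit was tested on simulated data. Gene text follows a rule: all members, up to 4 rises and 4 falls per list past the threshold, and the 3 genes most like Ccnd1 and Cdkn1a. Genes named at values that did not pass beyond that (Rb1, E2f1, Mdm2, Ccng1) and cell type markers were chosen after their values were seen. Members and lists were chosen with earlier results of these data known. The precision is limited by the number of arrays.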

Additional observations from a re-analysis of the deposited data

How the results depend on the processing

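Ccnd1 passed the threshold under all 13 other settings (0.89 to 1.005, adjusted p 0.00415 to 0.0178) and in all 11 fits with 1 array left out (0.89 to 1.07). Ccne1 passed in those 11 fits (0.27 to 0.36, adjusted p 0.00700 to 0.0468) and in 11 of 13 settings, and did not with the mean of all kept probes (0.17, adjusted p = 0.171) or median centring (0.22, adjusted p = 0.0564), where 1 member was called in place of 2. Other filters on dim probes, kept uneven spots and a quantile step on spot brightness left the differences of Ccnd1 (0.9654) and Ccne1 (0.3252) unchanged. So did the mean of all kept probes for Ccnd1, which has 1 probe. Passing under those settings repeats the main result. Cdkn1a was called with the mean of its probes (0.44, adjusted p = 0.0299), where it and Ccnd1 were the 2 members called, and with 1 array left out it ranged from 0.63 to 0.98 (adjusted p 0.00993 to 0.146), so that 2 to 3 members were called. Differences that did not pass changed sign for Ccnd2 with median centring (-0.040) and, with Cy5 alone, for Ccnd3 (0.0095) and Cdk4 (0.066); the cause was not tested. The number of genes called, 2338, was 1240 to 3868 with 1 array left out, and moved by over 1.5 times without PBS sample 1 (1240), 3 (1424) or 4 (1534) or antibody sample 4 (1398) or 5 (3868). Rises were 61.3% of calls, and 21.3% with median centring, 45.2% with the scanner software's ratio and 50.5% with Cy5 alone. With the replicate number as a block over 10 arrays 1049 genes were called and the same number of members, 2 (Ccnd1 0.95, adjusted p = 0.0178, and Ccne1 0.33, adjusted p = 0.0485). Same-numbered samples lay on the same slide, so that block also takes up differences between slides. Same-numbered deviations correlated at -0.13 to 0.14, and 1 of 5 PBS samples correlated best with its own number. So few weak correlations cannot settle whether the numbers pair the samples in another way. Scaling of the log ratios (2 members called) between arrays was added after seeing the data. Dim signal limits Ccne2, Cdk6 and the second probes of Ccne1 and Cdkn1a.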

Other observations

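Markers of other cells that liver can hold gave mixed values, and their counts stand beside 14.6% of all genes called in either direction. Of 8 bile duct markers none passed (mean level -1.47 to -1.25 in PBS and -1.40 to -1.15 with antibody), and neither did any of 5 B cell markers (-1.48 to -1.25 and -1.47 to -1.29). Of 7 T and NK cell markers Cd4 was called higher (0.57 ± 0.15, SE). Of 7 neutrophil markers 6 had differences above 0 (median of the 7 0.20), none of them called, and Csf3r was called lower (-0.26 ± 0.07, SE). PBS sample 5 had the highest neutrophil mean, 1.77 against 0.55 to 0.997 on the other PBS arrays. Of 4 erythroid markers Hba-a1 (0.21 ± 0.05, SE) and the anion exchanger Slc4a1 (0.42 ± 0.09, SE) were called higher. Of 6 adipocyte markers 5 had differences above 0 (median of the 6 0.30). The 1 called higher was the droplet protein Cidec, which fatty hepatocytes also make (2.21 ± 0.48, SE). Adipoq, the defining adipocyte hormone, was the marker below 0, at -0.21 ± 0.08 (SE, limma adjusted p = 0.0974). The part of these cells in the differences of the cyclin genes was not tested.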
